A study of Mus musculus with 68 samples.

Results

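The comparison set prostate samples from OPN-/- mice that carried the TRAMP transgene against prostate samples from OPN-/- mice that did not, late in life. The members were chosen by genotype and age in the sample labels, and they are 6 of the 68 arrays of the series. The transgenic group (OPN-/-TRAMP +/-) holds 3 mice, OT2 and OT3 of 27 weeks and OT6 of 24 weeks. The non-transgenic group (OPN-/-TRAMP -/-) holds 3 mice, O2, O7 and O14, all of 24 weeks. Both groups lack OPN (osteopontin, the product of Spp1), a secreted matrix phosphoprotein that binds integrins and CD44, so the groups differ in the transgene and, by up to 3 weeks, in age. TRAMP mice carry a transgene for the large and small T antigens of SV40, driven by a rat probasin promoter that is active in prostate epithelium. The effect is later set against those in mice without either deletion (TRAMP +/- and their non-transgenic controls, called wild type here), in SPARC-/- mice (SPARC-/- TRAMP +/- and SPARC-/- TRAMP -/-) and in younger OPN-/- mice. All samples, also those without the transgene, carry a tissue label of prostate tumour. The series covers adenocarcinoma and neuroendocrine carcinoma, and the labels do not say which of these any OPN-/-TRAMP +/- sample was. Total RNA was measured on Clariom S arrays, and the values are log2 RMA values, so every difference below is on the log2 scale, transgenic minus non-transgenic.

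SV40 large T antigen binds p53 and the RB family, and RB proteins so bound release E2F factors, which switch on genes of DNA synthesis and mitosis. Normal luminal prostate cells make secretory proteins under androgens and lie in a stroma rich in smooth muscle. Neuroendocrine prostate carcinoma lacks much of the androgen-driven programme and makes proteins of neurons and endocrine granules.

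The transgene labels were checked on 6 control probe sets of the array that carry SV40 sequence. Their mean was 8.35, 7.32 and 8.01 on OT2, OT3 and OT6, against 5.29, 5.52 and 5.43 on O2, O7 and O14. All 3 transgenic arrays lay above all 3 non-transgenic ones, with a difference of 2.48 (2-sided exact permutation test, p = 0.1, the smallest p that 3 against 3 arrays allow). Spp1 itself was not analysed here, so the OPN-/- label was not checked. Array quality, the area under the curve that separates positive from negative control probe sets, averaged 0.708 ± 0.0216 in transgenic and 0.705 ± 0.0356 in non-transgenic samples (SD, n = 3 each). It was under 0.7 on OT3 (0.683), O2 (0.691) and O14 (0.678). Over all target probe sets the arrays correlated at 0.925 to 0.964 within the transgenic group, 0.889 to 0.930 within the non-transgenic group and 0.860 to 0.903 between groups.

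Of 22206 target probe sets, 2643 (11.9%) were called, meaning a limma adjusted p under 0.05, with 1611 (7.25%) higher and 1032 (4.65%) lower in transgenic samples. The median difference over all probe sets was 9e-04. A change of at least 2-fold was called for 865 probe sets, 538 higher and 327 lower. All 3 transgenic samples lay on the same side of all 3 non-transgenic ones for 2109 of the 2643 called probe sets, and for 4339 (19.5%) of all probe sets, 11.4% higher and 8.14% lower. A further fit left out all arrays of quality under 0.7. Besides OT3, O2 and O14 these were the wild-type arrays T10 and B6 and the SPARC-/- arrays ST22 and S1. The comparison then rests on OT2 and OT6 against O7 alone, so its calls are not counted here. Its median difference over all probe sets was 0.0149. With only the 6 late OPN-/- arrays in the fit, 291 were called, with 3149 at an unadjusted p under 0.05. Leaving out O2 gave 1577 calls, and with age as a covariate there were 2359.

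The largest rises combined cell-cycle genes with genes of neurons. The 15 largest were Pbk, Slc25a21, Ccn3, H2bc18, Elavl3, Lrrn1, Smc4, Asf1b, Stmn1, Elavl4, Troap, Syt1, Ccne2, Ube2c and Hells, between 3.50 and 5.47. Pbk, a mitotic kinase, had values of 11.40, 10.83 and 11.85 on OT2, OT3 and OT6, against 5.26, 7.42 and 5.0 on O2, O7 and O14. Its difference was 5.47 ± 0.58 (SE, adjusted p = 9.41e-11), and O7 stood above O2 and O14. Slc25a21, a mitochondrial carrier of dicarboxylic acids, had values of 9.91, 8.80 and 9.42 on OT2, OT3 and OT6, against 4.48, 3.83 and 4.30 on O2, O7 and O14. The 3 non-transgenic samples lay below the median negative control of 5.37, so that its difference of 5.18 ± 0.33 (SE, adjusted p = 7.12e-19) is no exact size. The same limit holds for every gene whose level in a group was near or below that value. Ccn3, a secreted matricellular protein, had values of 10.78, 10.27 and 10.58 on OT2, OT3 and OT6, against 6.18, 6.10 and 5.96 on O2, O7 and O14. Its 3 values in each group lay within 1 log2 unit of each other, with a difference of 4.46 ± 0.38 (SE, adjusted p = 4.4e-14). Smc4, a condensin subunit, had values of 10.43, 9.16 and 10.03 on OT2, OT3 and OT6, against 4.69, 7.09 and 5.42 on O2, O7 and O14, with a difference of 4.14 ± 0.63 (SE, adjusted p = 1.58e-06) and no overlap. OT3 was the lowest transgenic sample for 14 of the 15 genes, and O7 the highest non-transgenic sample for 9.

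The largest falls were of prostate secretory products, smooth muscle proteins and a few genes of other cells. The 15 largest were Pbsn, Actg2, Synpo2, Pate9, Tspan1, Tgm4, Pigr, Acta2, Defb50, Gstm1, Fabp4, Cdcp3, Plac8, Dcn and Cnn1, between -6.17 and -3.23. Pigr, the epithelial receptor that carries polymeric immunoglobulins into secretions, had values of 5.12, 5.02 and 4.90 on OT2, OT3 and OT6, against 10.13, 9.42 and 7.13 on O2, O7 and O14. The 3 transgenic samples lay within 1 log2 unit of each other near the median negative control, O14 was the lowest non-transgenic sample, and the difference was -3.88 ± 0.75 (SE, adjusted p = 0.000157). Tspan1, a tetraspanin, and Plac8 fell with differences of -4.07 ± 0.53 (SE, adjusted p = 3.24e-08) and -3.39 ± 0.45 (SE, adjusted p = 6.61e-08). Gstm1, a glutathione transferase, had values of 5.67, 5.45 and 4.69 on OT2, OT3 and OT6, against 8.4, 10.77 and 8.02 on O2, O7 and O14, with a difference of -3.79 ± 0.73 (SE, adjusted p = 0.000145) and no overlap. O7 was the highest non-transgenic sample for 13 of the 15 genes and O14 the lowest for 12. Fabp4, the fatty acid binding protein of adipocytes, and Cdcp3 were no longer called without O2 or without O7, with adjusted p-values of 0.068 and 0.122 for Fabp4 and 0.101 and 0.0643 for Cdcp3. Fabp4 was also not called without OT2 or without OT3.

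**Figure D1:**
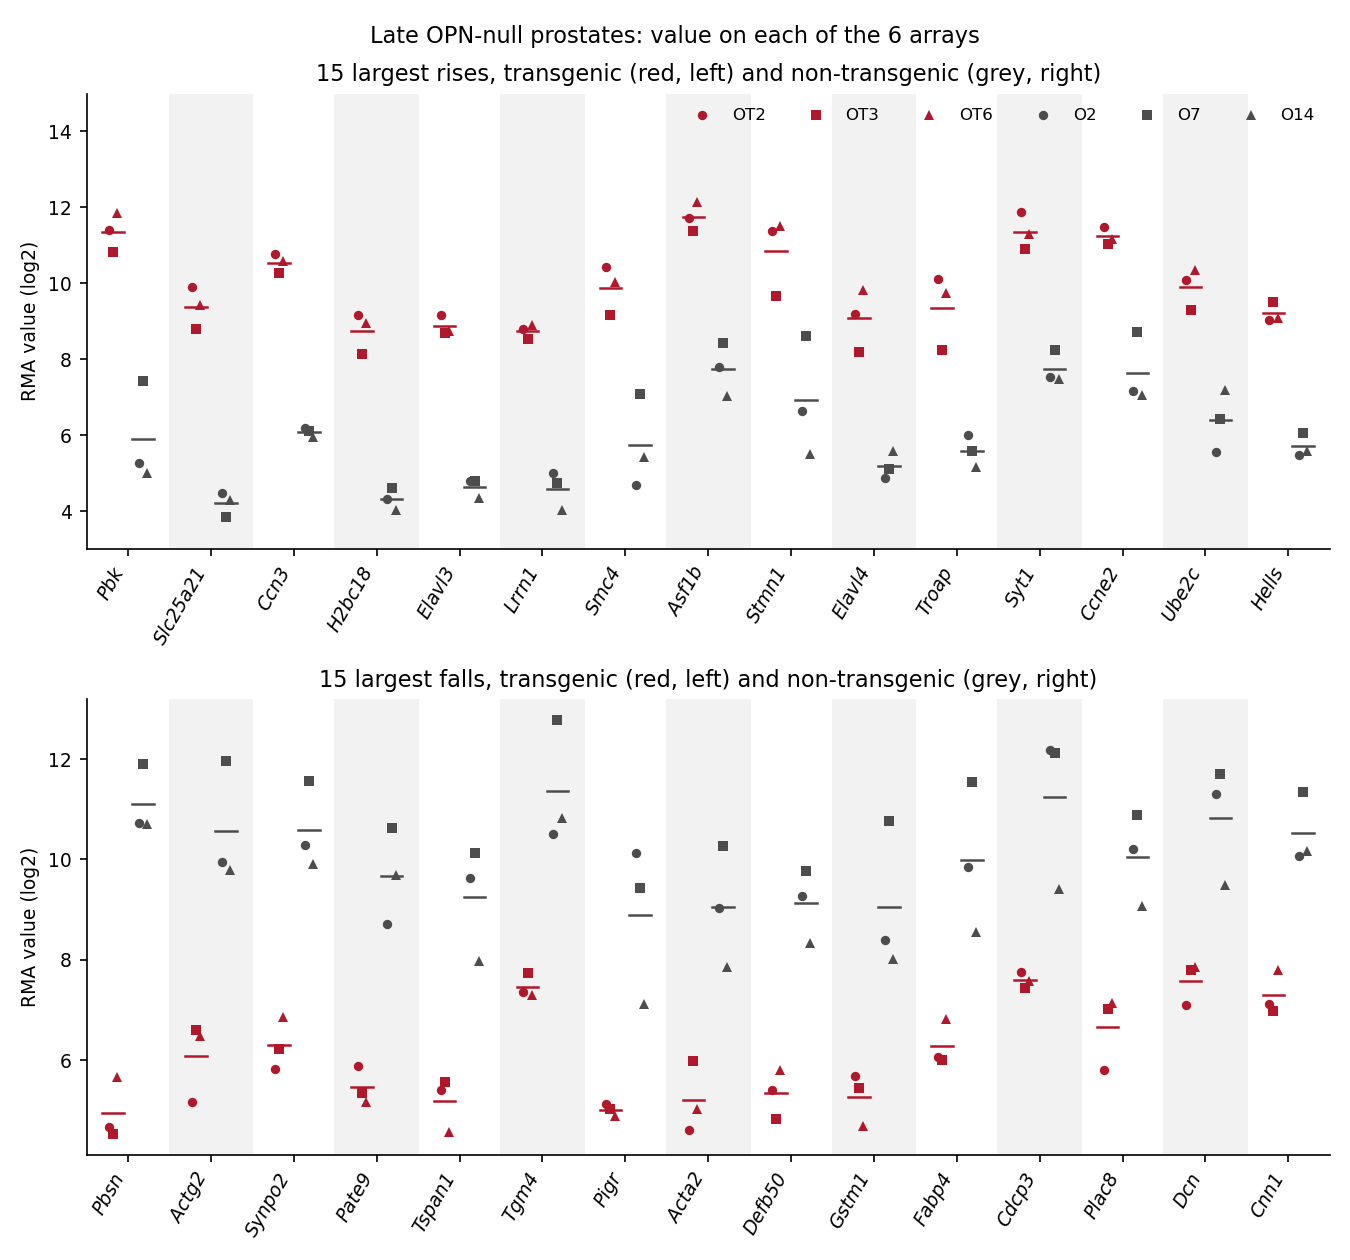
Log2 RMA value (vertical axis) of the 15 largest rises (upper panel) and 15 largest falls (lower panel) on each array, with OPN-/-TRAMP +/- samples in red on the left and OPN-/-TRAMP -/- samples in grey on the right of each gene; the short lines are group means. For none of the 30 genes do the groups overlap, a condition of the naming rule, and OT3 is the lowest red point for 14 of the 15 rises.

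Genes of mitosis rose almost throughout their list. Of 23 measured members 20 rose and 0 fell (87.0% called, against 7.25% of all probe sets that rose), with a list median of 1.23. Ube2c, which loads ubiquitin for the anaphase-promoting complex, had values of 10.09, 9.29 and 10.36 on OT2, OT3 and OT6, against 5.57, 6.42 and 7.19 on O2, O7 and O14. Its groups did not overlap and its difference was 3.52 ± 0.33 (SE, adjusted p = 1.75e-12). Mki67, the nuclear proliferation antigen, had values of 8.69, 7.27 and 7.84 on OT2, OT3 and OT6, against 5.70, 5.45 and 5.14 on O2, O7 and O14. OT3 was the lowest transgenic sample and still above the non-transgenic samples, with a difference of 2.50 ± 0.33 (SE, adjusted p = 6.27e-08). Top2a, the topoisomerase that untangles sister chromatids, rose by 1.15 ± 0.22 (SE, adjusted p = 0.000115). Kif23, a kinesin of the central spindle, rose by 2.75 ± 0.27 (SE, adjusted p = 9.85e-12) and Ndc80, a kinetochore subunit, by 2.28 ± 0.23 (SE, adjusted p = 1.33e-11). Aurkb, the kinase of the chromosomal passenger complex, had a difference of -0.19 (adjusted p = 0.528) and Bub1b, a spindle checkpoint kinase, 0.48 (adjusted p = 0.17). The mean level of the list was 7.22, 6.83 and 7.31 on OT2, OT3 and OT6, against 5.73, 5.70 and 5.83 on O2, O7 and O14, with no overlap and with OT3 lowest among transgenic samples.

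DNA replication genes rose in 20 of 26 measured members, and 0 fell (76.9% called, against 7.25% of all probe sets that rose), with a list median of 1.0. Pcna, the sliding clamp of DNA polymerase, had values of 9.26, 9.44 and 9.18 on OT2, OT3 and OT6, against 6.57, 6.77 and 6.08 on O2, O7 and O14. The transgenic samples lay close together and above the non-transgenic samples, with a difference of 2.82 ± 0.36 (SE, adjusted p = 1.64e-08). Prim1, a primase subunit, had values of 7.76, 5.89 and 7.29 on OT2, OT3 and OT6, against 5.34, 4.60 and 4.60 on O2, O7 and O14. OT3 was the lowest transgenic sample, and the difference was 2.14 ± 0.42 (SE, adjusted p = 0.000192). Lig1, the ligase that joins Okazaki fragments, rose by 1.79 ± 0.24 (SE, adjusted p = 6.61e-08) and Mcm4, a subunit of the replicative helicase, by 1.72 ± 0.27 (SE, adjusted p = 4.5e-06). Tk1, the thymidine kinase, had a difference of -0.02 (adjusted p = 0.942) and Cdc45, a helicase cofactor, 0.07 (adjusted p = 0.802). Homologous recombination genes rose in 9 of 18 measured members and 0 fell (50% called). Rad51ap1, a homologous recombination factor, had values of 7.98, 7.65 and 7.96 on OT2, OT3 and OT6, against 4.77, 4.96 and 5.24 on O2, O7 and O14, so the groups lay far apart, with a difference of 2.87 ± 0.32 (SE, adjusted p = 3.78e-10). Blm, a RecQ helicase, rose by 1.54 ± 0.26 (SE, adjusted p = 1.71e-05), Timeless, a replication fork protein, by 1.08 ± 0.29 (SE, adjusted p = 0.00865) and Atad2 by 0.92 ± 0.26 (SE, adjusted p = 0.0127), while Chek1 had a difference of 0.19 (adjusted p = 0.6). Without O7 the recombination count was 4.

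The RB pathway list, which holds E2F factors, cyclins and their kinases, had 15 rises and 1 fall among 19 measured members (84.2% called, against 11.9% of all probe sets) and a median of 0.95. Ccne2, a cyclin of S phase entry, had values of 11.49, 11.05 and 11.17 on OT2, OT3 and OT6, against 7.17, 8.71 and 7.05 on O2, O7 and O14, with a difference of 3.59 ± 0.43 (SE, adjusted p = 3.38e-09). O7 was the highest non-transgenic sample and still below OT3. Of the E2F factors, E2f8 rose by 2.43 ± 0.31 (SE, adjusted p = 1.73e-08), E2f1 by 1.62 ± 0.30 (SE, adjusted p = 6.67e-05) and E2f2 by 1.56 ± 0.28 (SE, adjusted p = 5.47e-05). E2f1 and E2f2 activate transcription and E2f8 is a repressor of the family. The RB family members Rb1 and Rbl1 rose by 0.62 ± 0.14 (SE, adjusted p = 0.00106) and 0.89 ± 0.26 (SE, adjusted p = 0.0181), and Rbl2 had a difference of -0.34 (adjusted p = 0.603). Rb1 stood at 7.14, 7.07 and 7.10 on OT2, OT3 and OT6, against 6.36, 6.70 and 6.4 on O2, O7 and O14, without overlap. Ccnd2, a D-type cyclin, was the 1 fall at -0.64 ± 0.15 (SE, adjusted p = 0.00226). Cdkn2a, which encodes INK4A and ARF, rose by 0.81 ± 0.24 (SE, adjusted p = 0.0173). In the p53 pathway list 1 of 20 measured members rose and 2 fell (15% called, against 11.9% of all probe sets), with a median of -0.10. Sesn2, a stress-induced regulator of growth signalling, rose by 0.94 ± 0.28 (SE, adjusted p = 0.0177), and Phlda3 and Tnfrsf10b, both p53 targets, fell, with differences of -0.65 (adjusted p = 0.00264) and -0.62 (adjusted p = 0.0364). Cdkn1a, the p21 inhibitor, had a difference of 0.54 (adjusted p = 0.0623), and Mdm2, the p53 ubiquitin ligase, 0.48 (adjusted p = 0.097). Without OT3 the p53 list had 4 falls, and without OT6 or O7 it had 1.

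Promoters of the cell-cycle genes are shown because members of these lists moved together. Sequences are RefSeq windows of GRCm38.p6 from 250 bases before to 50 after a start, which exist for 27025 genes, and a gene counts as holding a motif when any of its windows does on either strand. The E2F site was searched as TTTCCCGC, TTTGGCGC, TTTCGCGC or TTTGCCGC and lies in windows of 2.6% of all genes. It was in windows of 11 of the 22 DNA replication genes with a window, 7 of 15 RB pathway genes and 1 of 20 mitosis genes. The cell-cycle genes homology region was searched as TTTGAA and lies in windows of 20.2% of all genes. It was in windows of 16 of 20 mitosis genes and 4 of 22 DNA replication genes. CCAAT, searched alone, lies in windows of 41.1% of all genes, and in those of 16 of 20 mitosis and 14 of 22 DNA replication genes. It was also in windows of 7 of 9 smooth muscle, 6 of 14 androgen-regulated and 5 of 14 neuroendocrine genes. TTTGAA was in windows of 2 of 9, 5 of 14 and 6 of 14 genes of these 3 lists. These are matches of letters and were not tested as sites. The 150 bases before the start are given for the DNA replication genes and the mitosis genes with the largest rises whose motif lies in that stretch, 5′ to 3′ along the gene, with the E2F site, read on either strand, in capitals for Rfc3 (chr5:151651209-151651358, minus strand), a subunit of the clamp loader, and Cdc6 (chr11:98908001-98908150, plus strand), a licensing factor. TTTGAA, or TTCAAA where it lies on the other strand, is in capitals for Ube2c (chr2:164769779-164769928, plus strand) and Mki67 (chr7:135716380-135716529, minus strand). Rfc3 rose by 1.04 ± 0.22 (SE, adjusted p = 0.000472) and Cdc6 by 1.02 ± 0.25 (SE, adjusted p = 0.00386). In none of the 4 stretches do the capitals overlap another of the searched motifs.
Rfc3: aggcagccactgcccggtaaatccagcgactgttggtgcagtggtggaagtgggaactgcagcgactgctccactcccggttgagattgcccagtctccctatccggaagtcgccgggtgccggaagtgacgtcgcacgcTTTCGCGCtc
Cdc6: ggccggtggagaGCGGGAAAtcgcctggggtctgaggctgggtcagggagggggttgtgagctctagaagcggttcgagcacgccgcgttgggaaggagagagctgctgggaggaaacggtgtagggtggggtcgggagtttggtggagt
Ube2c: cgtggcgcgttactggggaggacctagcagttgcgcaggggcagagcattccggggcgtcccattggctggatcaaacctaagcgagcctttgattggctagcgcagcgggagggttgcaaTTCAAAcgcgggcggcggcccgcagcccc
Mki67: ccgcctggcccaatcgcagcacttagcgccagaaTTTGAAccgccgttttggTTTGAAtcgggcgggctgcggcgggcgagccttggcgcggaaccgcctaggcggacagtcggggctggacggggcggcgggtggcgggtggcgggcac

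Genes of chromatin repression were higher in part. Of 18 measured members 7 rose and 0 fell (38.9% called, against 7.25% of all probe sets that rose), with a median of 0.45. Ezh2, the methyltransferase of Polycomb repressive complex PRC2, had values of 10.69, 10.75 and 10.68 on OT2, OT3 and OT6, against 8.81, 8.90 and 9.24 on O2, O7 and O14. The 3 transgenic samples were almost equal, and the difference was 1.73 ± 0.24 (SE, adjusted p = 2.72e-07). Hells, a chromatin remodeller needed for DNA methylation, rose by 3.50 ± 0.40 (SE, adjusted p = 1.2e-09), Hmgb2, a chromatin-bending protein, by 2.24 ± 0.37 (SE, adjusted p = 1.2e-05) and Suz12, another PRC2 subunit, by 1.30 ± 0.40 (SE, adjusted p = 0.0239). Dnmt3a, a de novo DNA methyltransferase, rose by 1.06 ± 0.14 (SE, adjusted p = 5.14e-08), while its relative Dnmt3b had a difference of -0.38 (adjusted p = 0.149).

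Part of the neuroendocrine and neuronal genes rose in the transgenic samples. In the neuroendocrine list 10 of 19 measured members rose and 1 fell (57.9% called, against 11.9% of all probe sets), with a median of 0.77. Syt1, the calcium sensor of vesicle release, had values of 11.87, 10.90 and 11.29 on OT2, OT3 and OT6, against 7.52, 8.24 and 7.49 on O2, O7 and O14. All transgenic samples lay above all non-transgenic samples, with a difference of 3.60 ± 0.38 (SE, adjusted p = 7.08e-11). Insm1, a transcription factor of neuroendocrine differentiation, had values of 6.68, 6.76 and 6.04 on OT2, OT3 and OT6, against 5.08, 4.91 and 4.65 on O2, O7 and O14, and rose by 1.61 ± 0.22 (SE, adjusted p = 6.96e-08). OT6 was the lowest transgenic sample and still above the non-transgenic ones. Syp, a vesicle membrane protein used as a diagnostic marker, had values of 7.94, 7.56 and 8.12 on OT2, OT3 and OT6, against 6.18, 6.51 and 6.25 on O2, O7 and O14, and rose by 1.56 ± 0.21 (SE, adjusted p = 4.96e-08), again without overlap. Chga, which encodes the granule protein chromogranin A, rose by 0.99 ± 0.21 (SE, adjusted p = 0.000756). Ddc, the enzyme that makes dopamine and serotonin, rose by 1.75 ± 0.25 (SE, adjusted p = 3.22e-07) and Snap25, a fusion protein of synaptic vesicles, by 1.92 ± 0.30 (SE, adjusted p = 2.45e-06), with OT3 at 6.50 the lowest transgenic sample. Dbh, the enzyme that makes noradrenaline, was the 1 fall at -1.03 ± 0.24 (SE, adjusted p = 0.00226). Scg2, a granin, had a difference of -0.64 (adjusted p = 0.086) and Eno2, neuron-specific enolase, 0.32 (adjusted p = 0.501). Chgb, another granin, rose by 1.23 ± 0.17 (SE, adjusted p = 1.51e-07), Uchl1, a neuronal ubiquitin hydrolase, by 0.77 ± 0.20 (SE, adjusted p = 0.00615) and Ncam1, a neural adhesion molecule, by 1.19 ± 0.31 (SE, adjusted p = 0.00537), all 3 near or below the median negative control in non-transgenic samples. With probe sets whose mean over the 67 arrays was below that median left out, 12 members of the list remained, of which 5 rose and 1 fell.

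RNA-binding and splicing proteins of neurons rose in 7 of 11 measured members and fell in 0 (63.6% called, against 7.25% of all probe sets that rose), with a median of 1.04. Elavl3, a neuronal HuC protein that stabilises mRNA, had values of 9.18, 8.68 and 8.73 on OT2, OT3 and OT6, against 4.79, 4.80 and 4.35 on O2, O7 and O14, with a difference of 4.22 ± 0.24 (SE, adjusted p = 2.12e-21). Elavl4, its relative HuD, had values of 9.20, 8.19 and 9.84 on OT2, OT3 and OT6, against 4.87, 5.11 and 5.58 on O2, O7 and O14, with a difference of 3.89 ± 0.23 (SE, adjusted p = 5.08e-20). For both genes the lowest transgenic sample was more than 2 log2 units above the highest non-transgenic sample. Nova1, a neuronal splicing regulator, rose by 2.26 ± 0.23 (SE, adjusted p = 4.3e-11) and Rbfox1 by 1.47 ± 0.29 (SE, adjusted p = 0.000237). Srrm4, a splicing factor of neuronal microexons, had a difference of -0.08 (adjusted p = 0.875). Of the synaptic vesicle genes 4 of 20 measured rose and 0 fell (20% called). They were Rims2 at 1.94 ± 0.23 (SE, adjusted p = 4e-09) and Unc13a at 0.76 ± 0.15 (SE, adjusted p = 0.000205), active zone proteins, Cadps at 1.44 ± 0.24 (SE, adjusted p = 1.13e-05), a priming factor of dense-core vesicles, and Cplx2 at 0.63 ± 0.17 (SE, adjusted p = 0.0101), a complexin. Syn1, a synapsin, had a difference of 0.06 (adjusted p = 0.88). Of 7 measured markers of autonomic neurons and glia 1 rose (14.3% called, against 11.9% of all probe sets). This was Gap43, a growth cone protein, at 0.91 ± 0.24 (SE, adjusted p = 0.00803). The glial genes S100b and Sox10 had differences of -0.14 (adjusted p = 0.673) and -0.04 (adjusted p = 0.911). Without O14 the autonomic neuron and glia list had 0 rises.

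Neuronal transcription factors showed 2 rises and 1 fall among 20 measured members (15% called, against 11.9% of all probe sets). Prox1, a homeobox factor, had values of 8.56, 6.68 and 7.46 on OT2, OT3 and OT6, against 6.18, 5.79 and 6.95 on O2, O7 and O14. OT3 lay below O14, so the groups overlapped, and the difference was 1.26 ± 0.27 (SE, adjusted p = 0.000589). Rest, a repressor of neuronal genes, had values of 4.21, 4.16 and 3.59 on OT2, OT3 and OT6, against 4.17, 4.36 and 5.68 on O2, O7 and O14, with a difference of -0.75 ± 0.26 (SE, adjusted p = 0.0474). O14 was far above the other samples, OT2 lay above O2, and all but O14 were below the median negative control. Lhx2, a LIM homeobox factor, rose by 0.46 ± 0.16 (SE, adjusted p = 0.0464). The neuronal factors had 1 rise without OT2, OT6, O2 or O7, and 0 falls without OT6 or O14. Foxa2, a forkhead factor, had a difference of 0.13 (adjusted p = 0.667), Sox2 -0.25 (adjusted p = 0.531) and Nkx2-1 0.22 (adjusted p = 0.427). Among factors of the prostate, Pax9 had values of 10.06, 7.93 and 10.20 on OT2, OT3 and OT6, against 7.59, 7.58 and 7.73 on O2, O7 and O14. OT2 and OT6 were high, and OT3 lay just above the non-transgenic samples, with a difference of 1.76 ± 0.26 (SE, adjusted p = 7.72e-07). Pax9 lies near Slc25a21 on chromosome 12 in the RefSeq annotation of GRCm38.p6, and Slc25a21 was high in all 3 transgenic samples. Ehf, an ETS factor of epithelium, had values of 6.46, 5.86 and 5.45 on OT2, OT3 and OT6, against 8.04, 8.42 and 7.63 on O2, O7 and O14, and fell, with a difference of -2.10 ± 0.40 (SE, adjusted p = 0.000133) and no overlap. Hoxa13, a homeobox factor, rose by 0.52 ± 0.16 (SE, adjusted p = 0.0185), and the prostate factors held 2 rises and 1 fall among 13 measured members, and 1 rise without OT6, O2 or O14. Foxa1, a pioneer factor of luminal epithelium, had a difference of 0.48 (adjusted p = 0.285) and Hoxb13 -0.07 (adjusted p = 0.929).

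Androgen-regulated and luminal secretory genes fell in 9 of 22 measured members and rose in 0 (40.9% called, against 4.65% of all probe sets that fell), with a median of -1.81. Pbsn, probasin, had values of 4.66, 4.52 and 5.66 on OT2, OT3 and OT6, against 10.73, 11.91 and 10.70 on O2, O7 and O14. The transgenic samples were at the level of negative controls and the groups lay 5 log2 units apart at their nearest values, with a difference of -6.17 ± 0.71 (SE, adjusted p = 1.53e-09) that is no exact size. The SV40 probe sets, which read a transgene under the rat probasin promoter, were 2.48 higher in the same 3 samples. Tgm4, the prostate transglutaminase of the copulatory plug, had values of 7.35, 7.73 and 7.30 on OT2, OT3 and OT6, against 10.50, 12.78 and 10.82 on O2, O7 and O14, with a difference of -3.91 ± 0.84 (SE, adjusted p = 0.000747). Its groups did not overlap, and O7 was the highest sample. Defb50, a beta-defensin, had values of 5.40, 4.82 and 5.80 on OT2, OT3 and OT6, against 9.28, 9.77 and 8.33 on O2, O7 and O14, with a difference of -3.79 ± 0.51 (SE, adjusted p = 7.83e-08), with O14 lowest among the non-transgenic samples. Hpgd, which inactivates prostaglandins, fell with a difference of -2.62 ± 0.78 (SE, adjusted p = 0.0186). Mme, the endopeptidase neprilysin, fell with a difference of -1.98 ± 0.46 (SE, adjusted p = 0.00203) and Tmprss2, a luminal serine protease, with -1.21 ± 0.35 (SE, adjusted p = 0.0149). Spink1, a secreted protease inhibitor, had values of 6.86, 7.11 and 6.94 on OT2, OT3 and OT6, against 11.68, 11.73 and 8.16 on O2, O7 and O14. O14 was nearest to the transgenic samples, and the difference of -3.55 (adjusted p = 0.0933) was not called. Fkbp5, an androgen-induced chaperone, had a difference of 0.16 (adjusted p = 0.892) and Ndrg1 0.13 (adjusted p = 0.88). The count of falls was 5 without O2 and 5 without O7.

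The mouse Pbsn promoter is shown because Pbsn had the largest fall of all named genes. The half-site of androgen response elements was searched as AGAACA on both strands and lies in windows of 21.3% of all genes and of 7 of the 14 androgen-regulated genes with a window. The 150 bases before the start of Pbsn (chrX:77853501-77853650, minus strand) are from the same RefSeq windows of GRCm38.p6, with the half-site in capitals.
Pbsn: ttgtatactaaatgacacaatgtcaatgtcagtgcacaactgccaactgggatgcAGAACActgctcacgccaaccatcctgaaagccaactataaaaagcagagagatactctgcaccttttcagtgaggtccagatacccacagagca

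Luminal keratins and junction genes fell in 7 of 21 measured members and rose in 0 (33.3% called, against 4.65% of all probe sets that fell), with a median of -0.38. Krt18, a keratin of luminal cells, had values of 7.79, 8.31 and 7.45 on OT2, OT3 and OT6, against 9.44, 10.12 and 8.45 on O2, O7 and O14. The nearest values were OT3 and O14, and the difference was -1.49 ± 0.43 (SE, adjusted p = 0.0153). Cdh1, E-cadherin, had values of 6.64, 6.79 and 5.77 on OT2, OT3 and OT6, against 7.67, 7.99 and 6.50 on O2, O7 and O14, so that OT2 and OT3 overlapped with O14, and fell with a difference of -0.99 ± 0.30 (SE, adjusted p = 0.023). Grhl2, a factor of epithelial identity, fell with a difference of -1.11 ± 0.33 (SE, adjusted p = 0.0186), Krt7, a keratin of simple epithelium, with -1.09 ± 0.35 (SE, adjusted p = 0.0327) and Cldn7, a tight junction claudin, with -1.08 ± 0.28 (SE, adjusted p = 0.00528). Krt8, the partner of Krt18, had a difference of -0.70 (adjusted p = 0.0719) and Epcam -0.43 (adjusted p = 0.544). These calls rested on few arrays, since 0 of the 21 members fell without O7, 0 without OT6 and 2 without O2. Basal epithelial genes fell in 2 of 12 (16.7% called, against 11.9% of all probe sets). They were the integrin Itgb4 at -0.79 ± 0.18 (SE, adjusted p = 0.00197) and the laminin Lamb3 at -0.40 ± 0.14 (SE, adjusted p = 0.0458). The basal count was 0 without O14 and 1 without OT2, OT3 or OT6. Trp63, the basal transcription factor, had a difference of -0.70 (adjusted p = 0.0905) and Krt5 -0.53 (adjusted p = 0.235).

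Genes of the secretory pathway and the unfolded protein response fell in 7 of 19 measured members and rose in 0, with a median of -0.50. This is 36.8% called, against 4.65% of all probe sets that fell. Agr2, a disulphide isomerase of mucous and secretory cells, had values of 6.63, 7.07 and 6.12 on OT2, OT3 and OT6, against 8.5, 10.03 and 8.48 on O2, O7 and O14, with a difference of -2.40 ± 0.55 (SE, adjusted p = 0.00174). Hspa5, the main chaperone of the endoplasmic reticulum, had values of 8.79, 9.12 and 8.86 on OT2, OT3 and OT6, against 10.29, 11.79 and 9.46 on O2, O7 and O14, with a difference of -1.59 ± 0.54 (SE, adjusted p = 0.0425). In both genes O7 was more than 1 log2 unit above the other samples. Herpud1, a membrane protein of endoplasmic reticulum degradation, fell with a difference of -1.5 ± 0.49 (SE, adjusted p = 0.0344). Dnajc3, a cochaperone of Hspa5, fell with a difference of -2.28 ± 0.56 (SE, adjusted p = 0.00321) and Pdia6 with -1.33 ± 0.32 (SE, adjusted p = 0.00281), while Xbp1, a factor of the unfolded protein response, had a difference of -0.13 (adjusted p = 0.861). The count was 3 without O7, 4 without OT6 and 3 with a weight for each array. Of 16 genes of zinc, citrate and polyamine metabolism 2 fell (12.5% called, against 11.9% of all probe sets). They were the metallothionein Mt1 at -1.10 ± 0.34 (SE, adjusted p = 0.0253) and the zinc importer Slc39a1 at -0.44 ± 0.13 (SE, adjusted p = 0.0213). The zinc, citrate and polyamine list had 0 falls without OT6, O2 or O7, and 1 without OT3. Odc1, the first enzyme of polyamine synthesis, had a difference of 0.07 (adjusted p = 0.923).

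**Figure D2:**
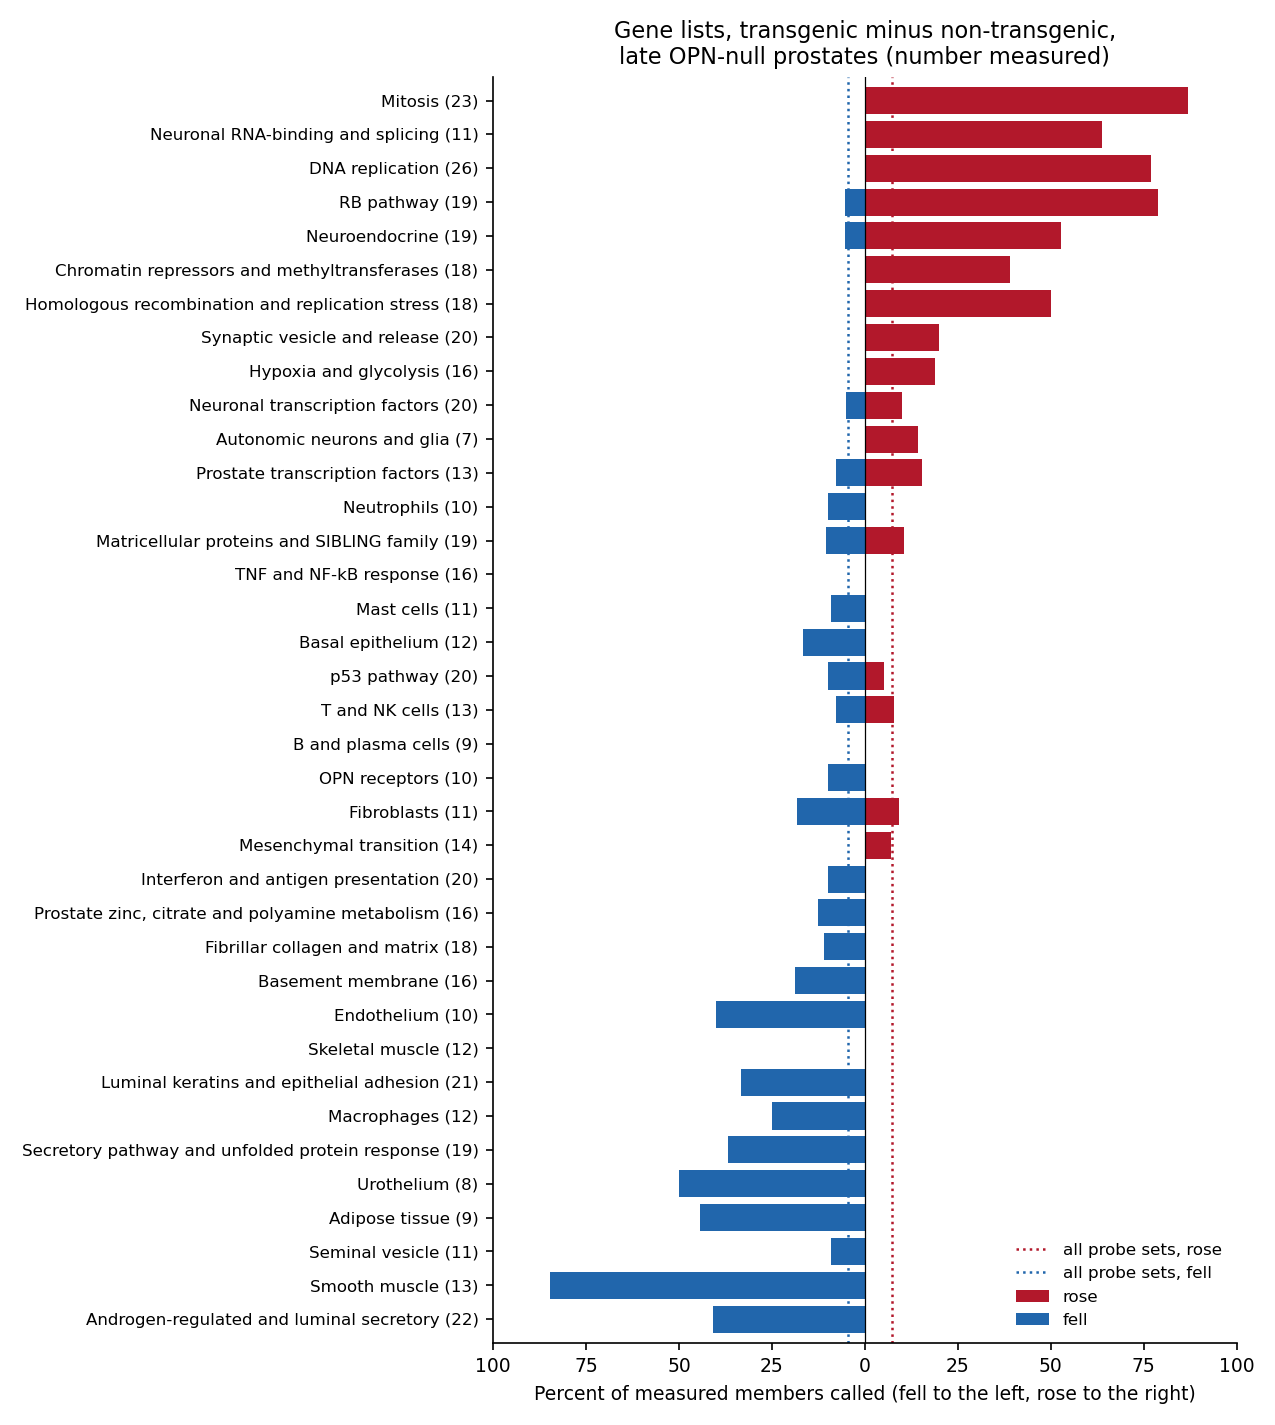
Percent of measured members of each of the 37 gene lists that fell (blue, left) or rose (red, right) in OPN-/-TRAMP +/- relative to OPN-/-TRAMP -/- samples, with the number measured in brackets and lists ordered by their median difference. Dotted lines mark the same shares of all probe sets, 4.65% that fell and 7.25% that rose. The mitosis list reaches 20 of 23 rises and the smooth muscle list 11 of 13 falls.

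Smooth muscle genes fell in 11 of 13 measured members and rose in 0 (84.6% called, against 4.65% of all probe sets that fell), with a median of -1.64. Actg2, the enteric smooth muscle actin, had values of 5.16, 6.60 and 6.47 on OT2, OT3 and OT6, against 9.94, 11.96 and 9.80 on O2, O7 and O14. The groups did not overlap, O7 was the highest sample and the difference was -4.49 ± 0.53 (SE, adjusted p = 3.4e-09). Acta2, the vascular smooth muscle actin, had values of 4.61, 5.98 and 5.02 on OT2, OT3 and OT6, against 9.03, 10.27 and 7.86 on O2, O7 and O14, with a difference of -3.85 ± 0.54 (SE, adjusted p = 2.98e-07). OT2, the lowest sample for both actins, and O7, the highest, mark the ends of the range. Cnn1, calponin, had values of 7.12, 6.99 and 7.80 on OT2, OT3 and OT6, against 10.07, 11.35 and 10.17 on O2, O7 and O14, with a difference of -3.23 ± 0.35 (SE, adjusted p = 1.69e-10), without overlap. Synpo2 and Tagln, both actin-binding proteins, fell with differences of -4.28 ± 0.45 (SE, adjusted p = 1.15e-10) and -2.93 ± 0.38 (SE, adjusted p = 2.66e-08), and Myh11, smooth muscle myosin, with -1.58 ± 0.39 (SE, adjusted p = 0.00324). Myocd, the factor that drives smooth muscle genes, had a difference of -0.18 (adjusted p = 0.635). In whole tissue, fewer cells of a type and less RNA per cell cannot be told apart, here and for every other cell type below.

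Matrix and vessel genes changed in a minority of members. Falls were called for 11.1% of collagen and matrix, 18.8% of basement membrane and 40% of endothelial genes. Of all probe sets 4.65% fell and 7.25% rose. Fibrillar collagen and matrix genes fell in 2 of 18 and rose in 0. Dcn, the proteoglycan decorin, had values of 7.09, 7.79 and 7.86 on OT2, OT3 and OT6, against 11.30, 11.71 and 9.48 on O2, O7 and O14, with a difference of -3.25 ± 0.44 (SE, adjusted p = 1.15e-07), and Col3a1 fell with -0.81 ± 0.27 (SE, adjusted p = 0.0377). Col1a1 had a difference of -0.09 (adjusted p = 0.807). Basement membrane genes fell in 3 of 16, Lama2 at -0.77 ± 0.22 (SE, adjusted p = 0.016), Nid1 at -0.72 ± 0.21 (SE, adjusted p = 0.013) and Lama4 at -0.50 ± 0.14 (SE, adjusted p = 0.0112). Of 11 fibroblast genes, Dpt and Igf1 fell with -1.04 (adjusted p = 0.039) and -0.90 (adjusted p = 0.00938), and Fgf2, a growth factor, rose with 0.62 (adjusted p = 0.0101). The fibroblast list had 0 falls without OT2, 3 without OT3 and 1 without OT6, O2, O7 or O14, and 0 rises without O2. The collagen and matrix list had 1 fall without OT2, OT6 or O7 and 3 without OT3. Of 10 endothelial genes 4 fell, Cdh5, Emcn, Pecam1 and Flt1, between -0.87 and -0.56, and Plvap had a difference of 0.65 (adjusted p = 0.0786). The endothelial count was 1 without OT6 and 2 without OT2, O7 or O14, and the basement membrane count was 0 without O7 and 1 without OT6. Of 14 mesenchymal transition genes 1 rose, Cdh2, N-cadherin, at 0.62 ± 0.19 (SE, adjusted p = 0.0273), and Vim had a difference of -0.35 (adjusted p = 0.266). The mesenchymal list had 0 rises without OT6, O2 or O14, and its falls were 3 without O14 and 2 without OT3. Its median difference was -0.20, and -0.66 without all arrays of quality under 0.7.

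Matricellular proteins, the class to which SPARC and OPN belong, held 2 rises and 2 falls among 19 measured members (21.1% called, against 11.9% of all probe sets). The falls were 0 without O7, 1 without OT2 and 3 without any one of OT3, OT6, O2 and O14. Besides Ccn3, Smoc1 rose with values of 6.71, 7.12 and 7.16 on OT2, OT3 and OT6, against 6.32, 6.44 and 6.18 on O2, O7 and O14, with a difference of 0.69 ± 0.17 (SE, adjusted p = 0.00321). Tnc, tenascin-C, had values of 6.85, 6.99 and 6.74 on OT2, OT3 and OT6, against 7.14, 8.93 and 7.89 on O2, O7 and O14, and fell with a difference of -1.13 ± 0.32 (SE, adjusted p = 0.0119), and Thbs2, a thrombospondin, with -0.99 ± 0.28 (SE, adjusted p = 0.0114). Sparc had values of 6.81, 6.72 and 6.88 on OT2, OT3 and OT6, against 6.53, 7.54 and 6.56 on O2, O7 and O14. The transgenic samples lay above O2 and O14 and below O7, and the difference was -0.07 (adjusted p = 0.888). The other measured members of the family of OPN, Ibsp, Dmp1, Dspp and Mepe, had differences between -0.10 and 0.17, and none was called. Of 10 receptors of OPN 1 fell (10% called, against 11.9% of all probe sets). This was Itgav, the integrin alpha-v chain, with values of 8.35, 8.85 and 8.48 on OT2, OT3 and OT6, against 9.39, 8.91 and 9.36 on O2, O7 and O14, with a difference of -0.66 ± 0.16 (SE, adjusted p = 0.00233). The nearest samples were OT3 and O7, which did not overlap. Cd44 had a difference of -0.24 (adjusted p = 0.575).

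Markers of immune cells moved in few members, most of all in the macrophage list, where 25% fell. Among all probe sets 4.65% fell and 7.25% rose, 11.9% together. Of 13 T and NK cell genes Cd8a rose, with values of 6.65, 7.31 and 6.61 on OT2, OT3 and OT6, against 5.91, 5.85 and 5.81 on O2, O7 and O14, with a difference of 1.0 ± 0.19 (SE, adjusted p = 0.000159), without overlap. Cd3e fell, with a difference of -0.79 ± 0.20 (SE, adjusted p = 0.0036), and Cd8b1 had a difference of -0.10 (adjusted p = 0.757). The T and NK list had 0 falls without O14, 2 without OT3, and 2 rises and 2 falls without O7. Of 12 macrophage genes 3 fell, C1qc, a complement subunit, at -0.88 ± 0.27 (SE, adjusted p = 0.0204), Adgre1, which encodes F4/80, at -0.59 ± 0.20 (SE, adjusted p = 0.0377) and Marco, a scavenger receptor, at -0.56 ± 0.17 (SE, adjusted p = 0.0243). The macrophage count was 0 without O2, 0 without O14 and 0 without OT2. Mrc1, the mannose receptor, had values of 5.92, 6.72 and 5.29 on OT2, OT3 and OT6, against 8.48, 7.14 and 12.09 on O2, O7 and O14. O2, O7 and O14 differed widely among themselves, and its difference of -3.26 (adjusted p = 0.0773) was not called. Of 9 B and plasma cell genes 0 were called, 1 of 10 neutrophil genes fell, Cxcr2 at -0.45 (adjusted p = 0.0366), and 1 of 11 mast cell genes fell, Kit at -0.52 (adjusted p = 0.0387). The neutrophil count was 0 without any one array but O7, and the mast cell count 0 without OT2, OT6, O2 or O14. B2m, the light chain of MHC class I, had values of 9.92, 9.35 and 9.67 on OT2, OT3 and OT6, against 12.82, 12.90 and 11.18 on O2, O7 and O14. All transgenic samples lay below all non-transgenic samples, with a difference of -2.65 ± 0.32 (SE, adjusted p = 4.76e-09). Bst2, an interferon-induced membrane protein, fell with a difference of -0.98 ± 0.30 (SE, adjusted p = 0.021), and these were the 2 falls among 20 interferon and antigen presentation genes, with 1 without OT6. The class I heavy chains H2-K1 and H2-D1 had differences of -0.23 (adjusted p = 0.628) and 0.14 (adjusted p = 0.705). Of 16 TNF and NF-kB response genes 0 were called. Of 16 hypoxia and glycolysis genes 3 rose, Vegfa, the vascular growth factor, at 1.09 ± 0.30 (SE, adjusted p = 0.00963), Pgk1 at 0.95 ± 0.23 (SE, adjusted p = 0.00266) and Ldha at 0.91 ± 0.32 (SE, adjusted p = 0.0473). Without O2 this count was 0, and without O14 it was 1.

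Genes of tissues next to the prostate were unequal among the non-transgenic samples. Falls were called for 9.09% of seminal vesicle, 50% of urothelium and 44.4% of adipose genes. Of all probe sets 4.65% fell, and 11.9% were called in either direction. The mean level of the seminal vesicle list was 5.36, 5.44 and 5.22 on OT2, OT3 and OT6, against 7.94, 7.12 and 6.46 on O2, O7 and O14. Svs5, a seminal vesicle secretory protein, had values of 5.37, 5.56 and 4.98 on OT2, OT3 and OT6, against 12.56, 12.39 and 7.94 on O2, O7 and O14, and Svs2 of 6.14, 7.65 and 6.24 on OT2, OT3 and OT6, against 12, 11.54 and 9.90 on O2, O7 and O14. All transgenic samples were below all non-transgenic samples for both genes, O14 was the lowest of those, and neither difference was called, at -5.66 (adjusted p = 0.107) for Svs5 and -4.47 (adjusted p = 0.108) for Svs2. Of the 11 measured genes of this list 1 fell, Pate9, at -4.21 ± 0.65 (SE, adjusted p = 2.65e-06), and 2 fell without O7. The mean level of the urothelium list was 5.99, 6.12 and 6.18 on OT2, OT3 and OT6, against 6.73, 7.89 and 6.80 on O2, O7 and O14, highest on O7, and 4 of 8 genes fell. Upk1b, a uroplakin of the bladder lining, had values of 5.81, 5.70 and 6.86 on OT2, OT3 and OT6, against 7.91, 10.12 and 7.88 on O2, O7 and O14, with a difference of -2.51 ± 0.44 (SE, adjusted p = 2.45e-05). Its relatives Upk1a and Upk2 fell with -1.95 (adjusted p = 0.0267) and -0.92 (adjusted p = 0.000339), and Ivl, an envelope protein of squamous cells, with -1.75 (adjusted p = 0.00449). The mean level of the adipose tissue list was 6.68, 6.47 and 6.57 on OT2, OT3 and OT6, against 7.66, 8.18 and 7.29 on O2, O7 and O14, and 4 of 9 genes fell, Fabp4 and Adipoq, adiponectin, at -1.86 ± 0.55 (SE, adjusted p = 0.017), Lep, the hormone leptin, at -1.03 (adjusted p = 0.0103) and Plin4, a lipid droplet protein, at -0.62 (adjusted p = 0.0093). The adipose count was 0 without O2 and 1 without OT3, and the urothelium count was 2 without O7. The mean level of the skeletal muscle list was 6.39, 6.77 and 6.69 on OT2, OT3 and OT6, against 6.75, 6.68 and 7.76 on O2, O7 and O14, highest on O14, and 0 of 12 genes were called. The part of adjacent tissue in the falls of secretory and smooth muscle genes was not tested.

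**Figure D3:**
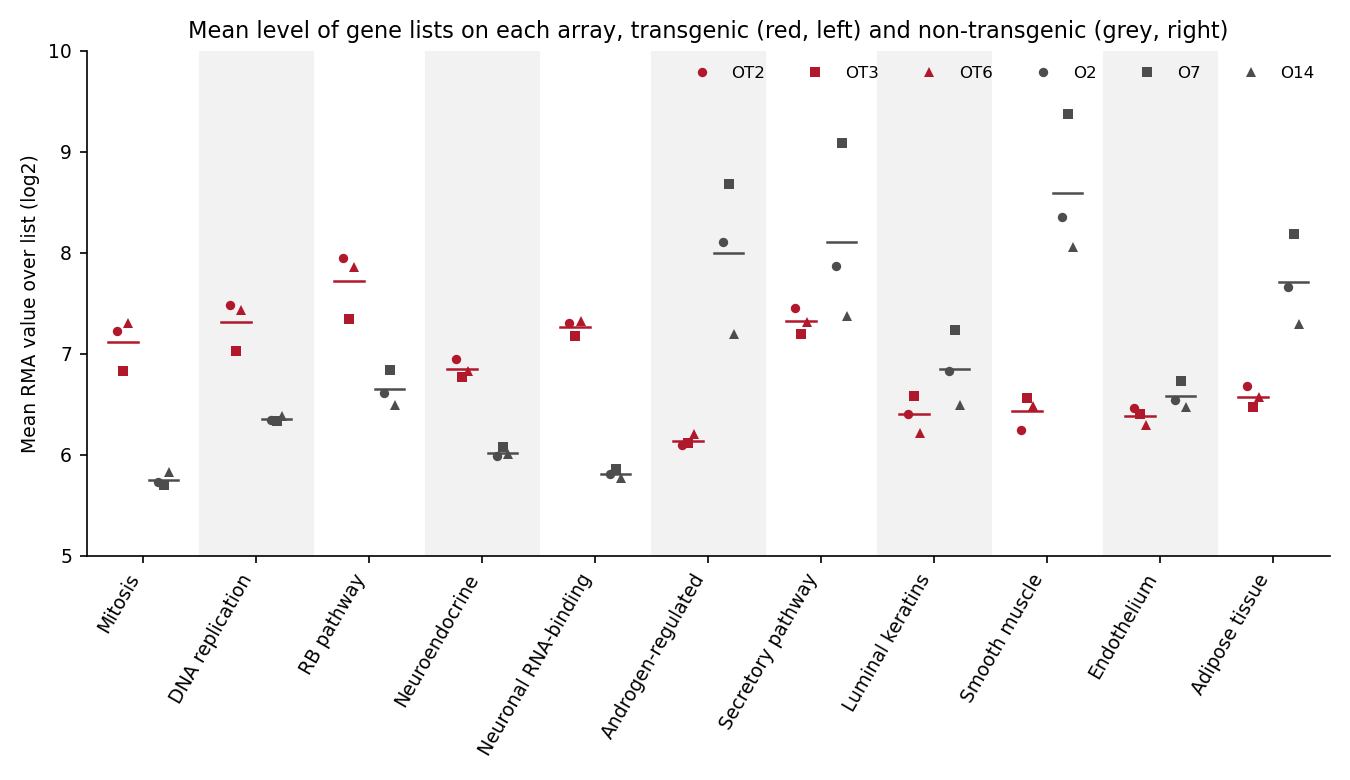
Mean log2 RMA value over the measured members of 11 gene lists on each array, OPN-/-TRAMP +/- samples in red on the left and OPN-/-TRAMP -/- samples in grey on the right, with short lines at the group means. The cell-cycle and neuroendocrine lists lie higher in all red samples than in all grey ones, and O7 is the highest grey sample in the secretory and smooth muscle lists. OT3 has the lowest red value in the mitosis and DNA replication lists.

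The late effect on the OPN-/- background was then set against the transgene effect in 3 other settings. Late wild-type mice, whose labels name no OPN or SPARC deletion, were 7 TRAMP +/- of 24 to 25 weeks against 6 TRAMP -/- of 24 weeks. Late SPARC-/- mice were 9 TRAMP +/- of 24 to 29 weeks against 4 TRAMP -/- of 25 to 27 weeks. Early OPN-/- mice were 6 TRAMP +/- against 5 TRAMP -/-, all of 16 to 17 weeks. Those effects had 140, 282 and 21 called probe sets (0.63%, 1.27% and 0.0946%). In late wild-type mice 136 of the 140 were higher (0.612%) and 4 lower (0.018%). In late SPARC-null mice 202 were higher (0.91%) and 80 lower (0.36%), and in early OPN-/- mice all 21 were higher. The difference between effects was called for 1194 probe sets (5.38%) against late wild type, 738 more positive and 456 more negative. It was called for 1307 (5.89%) against late SPARC-null, 3.55% more positive and 2.33% more negative, and for 1128 (5.08%) against early OPN-/-, 3.65% more positive and 1.43% more negative. The 3 differences share the late OPN-/- effect and its 6 arrays, so they do not stand for 3 separate results. The group sizes also differ, and a larger count of calls is not by itself a larger effect.

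In the neuroendocrine and RNA-binding lists 0 members were called in the transgene effects of late wild-type, late SPARC-null and early OPN-/- mice. Of the synaptic vesicle genes Cadps rose in late wild-type mice and Sv2c fell in late SPARC-null mice. Elavl3 had an effect of 4.22 in late OPN-/-, against 0.32 in late wild-type, -0.10 in late SPARC-null and -0.08 in early OPN-/- mice. Its difference from the wild-type effect was 3.91 (adjusted p = 4.85e-16). In the neuroendocrine list 10 of 19 members had a more positive effect than in wild type (3.32% of all probe sets did) and 1, Dbh, a more negative one (2.05% of all). Against late SPARC-null mice 10 members were more positive, and against early OPN-/- mice 9. The list median was 0.77, against -0.05 in late wild-type, -0.06 in late SPARC-null and -0.08 in early OPN-/- mice. In the RNA-binding list 7 of 11 members had a more positive effect than in each of the other 3 comparisons. Slc25a21 had an effect of -0.20 in late wild-type mice, and the difference from it was 5.37 (adjusted p = 1.31e-15). Ccn3 had 0.24 there, with a difference of 4.22 (adjusted p = 6.99e-10).

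Cell-cycle genes rose with the transgene on the other backgrounds too. In the DNA replication list 12 of 26 members rose in late wild-type, 16 in late SPARC-null and 2 in early OPN-/- mice. Of all probe sets 0.612%, 0.91% and 0.0946% rose there. The list medians were 1.0 in late OPN-/-, 0.51 in late wild-type, 0.71 in late SPARC-null and 0.49 in early OPN-/- mice. The difference from the wild-type effect was called for 1 member, Rrm2, a ribonucleotide reductase subunit, at 1.04, for 0 against SPARC-null, and for 3 against early OPN-/-, Pcna at 1.86, the methyltransferase Dnmt1 at 0.77 and its partner Uhrf1 at 0.67. Pcna had an effect of 2.82 in late OPN-/- and 1.73 in late wild-type mice, and that difference was not called (adjusted p = 0.134). In the mitosis list 12 of 23 members had a more positive effect than in wild type, among them Ube2c at 1.75, Ndc80 at 1.71 and Kif23 at 1.53. Against late SPARC-null mice 9 members did, and against early OPN-/- mice 13. The shares of all probe sets were 3.32% against late wild-type, 3.55% against late SPARC-null and 3.65% against early OPN-/- mice. The median effect of the mitosis list was 1.23 in late OPN-/-, 0.46 in late wild-type, 0.61 in late SPARC-null and 0.32 in early OPN-/- mice. Hells rose by 3.50 in late OPN-/- and 2.96 in late wild-type mice, and the difference of 0.54 was not called (adjusted p = 0.592).

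None of the 15 largest falls was called in late wild-type, late SPARC-null or early OPN-/- mice, where the median effects of these 15 were -0.27, -0.34 and -0.34, against -3.85 in late OPN-/- mice. The difference from the wild-type effect was called for 13 of them, all but Fabp4 and Cdcp3. These 15 were chosen as the largest falls on the same late OPN-/- arrays, so a high count follows in part from that choice. Of all probe sets 2.05% had a more negative effect than in late wild-type mice. The shares were 2.33% against late SPARC-null and 1.43% against early OPN-/- mice. Pbsn had an effect of -6.17 in late OPN-/-, -0.67 in late wild-type, -0.98 in late SPARC-null and -0.46 in early OPN-/- mice. In the androgen-regulated list 6 of 22 members had a more negative effect than in wild type, 3 than in late SPARC-null and 6 than in early OPN-/- mice. In late SPARC-null mice 3 members of the androgen-regulated list fell, Spink1 with an effect of -3.92, Sbpl with -3.00 and Ndrg1 with -1.24. The secretory pathway list had a median of -0.67 there, with 0 called, and -0.50 in late OPN-/- mice. The smooth muscle list had 5 of 13 more negative than in wild type, Actg2, Synpo2, Acta2, Tagln and Cnn1. B2m had an effect of -2.65 in late OPN-/- and 0.26 in late wild-type mice (difference -2.91, adjusted p = 2.36e-07). H2-K1 had -0.23 and 0.88, with a difference of -1.11 (adjusted p = 0.0231). The interferon and antigen presentation list had 4 rises of 20 in late wild-type mice and 0 in late OPN-/- mice.

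**Figure D4:**
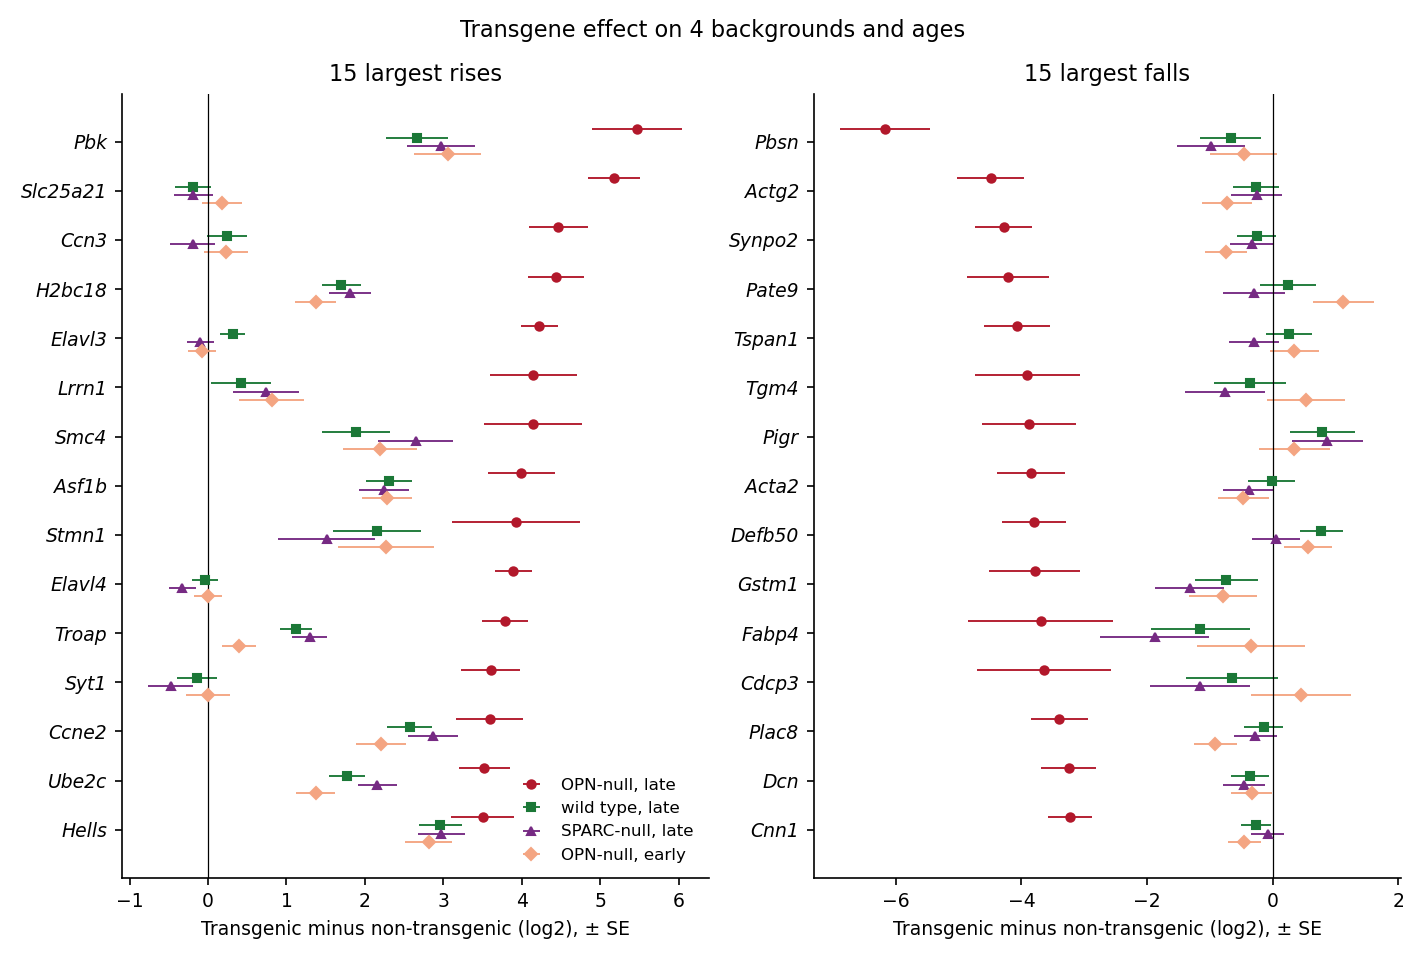
Transgene effect (transgenic minus non-transgenic, log2, with its SE as bars) of the 15 largest rises (left) and 15 largest falls (right) in late OPN-/- mice (red) and, below it in each row, in late wild-type (green), late SPARC-null (purple) and early OPN-/- mice (orange). The genes were chosen on the red points. Slc25a21, Ccn3, Elavl3, Elavl4 and Syt1 lie near 0 in the other 3 effects, while Hells lies between 2.81 and 3.50 in all 4.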

How the data were processed

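Prostate RNA was hybridised to Clariom S arrays. The deposited table holds log2 values that, per the submitters' processing notes, were made by the authors with RMA in oligo (versions not given in the sources used here). RMA includes quantile normalization, so a shift of most probe sets in 1 direction would be removed, and it compresses differences at low signal. Values ran from 2.70 to 13.74, array medians from 6.25 to 6.34. Of 29129 probe sets 6923 are controls, among them 1324 positive, 5222 negative and 6 SV40 ones. The other 22206 were tested, unfiltered. GEO's platform annotation gave 1 symbol to 19572 of them and none to 2634. For 55 genes with several probe sets the brightest was used.

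One mean per group was fitted over 67 arrays in 12 groups with limma 3.58.1 (R 4.3.3, lmFit and eBayes, 2-sided), so that all groups share 1 estimate of spread. Array weights by transgene status were 1.11 (transgenic) and 0.87 (non-transgenic). Adjustment was by Benjamini-Hochberg over the 22206 probe sets, at a threshold of 0.05. Array O12, whose genotype label and code disagree, is in no group. Each array is 1 animal by its code. The number of arrays limits the precision.

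Among called genes with 1 symbol and groups that do not overlap, predicted genes left out, the 15 largest rises and falls were named, and up to 4 called members each way per list. The 37 lists (607 genes, 558 measured) and the members were chosen with earlier results of these data known. Other list members, called or not, were named after their values were seen.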

Additional observations from a re-analysis of the deposited data

Results flagged for a closer look

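The late transgene effect on the OPN-/- background differed from the effect in other mice by a test of the difference itself (limma, adjusted p under 0.05). Against late wild-type mice 1194 probe sets differed, against late SPARC-null mice 1307 and against early OPN-/- mice 1128. The 3 tests share the same late OPN-/- effect, so its 6 arrays weigh on all of them.

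Minus the late wild-type effect, the late OPN-/- effect was 5.37 for Slc25a21, 4.22 for Ccn3, 3.93 for Elavl4, 3.91 for Elavl3, 3.75 for Syt1, 3.72 for Lrrn1, and -5.50 for Pbsn, -4.67 for Pigr, -4.57 for Defb50, -4.46 for Pate9, -4.32 for Tspan1, -4.21 for Actg2 on the log2 scale. Minus the late SPARC-null effect it was 5.36 for Slc25a21, 4.66 for Ccn3, 4.33 for Ipw, 4.32 for Elavl3, 4.22 for Elavl4, 4.08 for Syt1, and -5.19 for Pbsn, -4.75 for Pigr, -4.23 for Actg2, -3.94 for Synpo2, -3.91 for Pate9, -3.84 for Defb50. Minus the early OPN-/- effect it was 5.0 for Slc25a21, 4.30 for Elavl3, 4.23 for Ccn3, 4.10 for Ipw, 3.89 for Elavl4, 3.60 for Syt1, and -5.71 for Pbsn, -5.34 for Pate9, -4.44 for Tgm4, -4.41 for Tspan1, -4.36 for Defb50, -4.22 for Pigr. Slc25a21, Ccn3, Elavl3, Elavl4, Syt1, Pbsn, Pigr, Pate9 and Defb50 stand in all 3 of these lists.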

How the results depend on the processing

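The late OPN-/- comparison called 2643 probe sets, 1611 higher and 1032 lower in transgenic samples. Equal weights, a weight per array, age as a covariate, the OPN-/- arrays alone, no dim probe sets, a common median and repeated quantile normalization kept each of these counts within 1.5 times. With array quality as a covariate 4133 were called, of which 1813 were lower. Without the arrays of low quality 1004 were higher. With the groups of the comparison alone 291 were called, 196 higher and 95 lower, on fewer arrays to estimate the spread. Leaving out each array in turn gave 1577 (without O2) to 3134 (without OT3) calls, 1069 to 1778 higher and 508 to 1356 lower, with 597 lower without OT6 and 681 without OT2. Against the late wild-type effect 1194 differed, with 2333 under the quality covariate, 422 with only the groups compared, and 776 (without O2) to 1564 when an array was left out. Against the late SPARC-null effect 1307 differed, with 2517 at a weight per array, 2620 under the quality covariate, and 713 (without O2) to 2003 (without O7) when an array was left out. Against the early OPN-/- effect 1128 differed, with 2278 under the quality covariate and 751 with the OPN-/- arrays alone. The cause of these shifts was not tested. Of the 133 genes followed through these settings 0 reversed, but 74 lost their call in at least 1 setting. With only the groups of the comparison in the fit 72 lost it, and 33 did so without O2 and 33 without OT6. The other genes named were not followed. No paired analysis was possible because the animal codes of the 2 groups share only the number 2, and the labels tie no animals together. Sizes near the negative controls and the 3 arrays a group limit the precision.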

Other observations

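Gene families, mostly outside the lists, were counted member by member. They were picked after the values had been seen, every measured member was counted, and the families were not tested as sets. Of 57 measured histone cluster genes, whose products package newly made DNA, 45 rose and 0 fell, with a median of 1.03 on the log2 scale. H2bc14 had values of 10.61, 10.32 and 10.17 on OT2, OT3 and OT6, against 7.16, 7.33 and 7.09 on O2, O7 and O14, a difference of 3.17 ± 0.27 (SE, adjusted p = 6.55e-14), and H3c7 rose by 2.10 ± 0.25 (SE, adjusted p = 4.21e-09). Histone genes are near-identical copies that probes may not separate, and H3c14 and H3c15 had the same value on every array. Of 8 condensin subunits 6 rose, with a median of 1.71. Smc2 had values of 8.92, 9.06 and 8.82 on OT2, OT3 and OT6, against 6.68, 6.76 and 6.83 on O2, O7 and O14, and Ncapg rose by 2.91 ± 0.33 (SE, adjusted p = 1.24e-09), while among the subunits of condensin II Ncapg2 rose by 3.11 ± 0.47 (SE, adjusted p = 1.65e-06) and Ncapd3 and Ncaph2 had differences of -0.06 and -0.19. Of 34 kinesins 15 rose, among them Kif11, Kif20a and Kif23 of the mitosis list, and 1 fell, Kif21a. Of 31 protocadherins, cell adhesion proteins best known from neurons, 6 rose and 1 fell, and Pcdh8 had values of 9.71, 8.16 and 9.21 on OT2, OT3 and OT6, against 6.54, 5.93 and 5.63 on O2, O7 and O14, a difference of 2.99 ± 0.23 (SE, adjusted p = 2.07e-15).

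Of 24 glutathione transferases, which detoxify electrophiles, 6 fell and 0 rose, with a median of -0.48. Gstm2 had values of 5.23, 5.02 and 4.81 on OT2, OT3 and OT6, against 7.61, 7.48 and 6.27 on O2, O7 and O14, a difference of -2.10 ± 0.46 (SE, adjusted p = 0.000869), and Mgst1 fell with a difference of -1.43 ± 0.38 (SE, adjusted p = 0.00726). Of 61 ribosomal protein genes 6 fell and 0 rose, with a median of -0.41. For most of them the groups overlapped, and O7 was often the highest non-transgenic sample. The families were not recounted with arrays left out. Rps4x, a protein of the small subunit, had values of 6.47, 5.97 and 6.57 on OT2, OT3 and OT6, against 7.85, 9.24 and 8.30 on O2, O7 and O14, a difference of -2.13 ± 0.48 (SE, adjusted p = 0.00131). Of 39 beta-defensins, among them Defb50 of the androgen-regulated list, 3 fell and 0 rose, with a median of -0.20. Over all probe sets 7.25% rose and 4.65% fell.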
